A study of Mus musculus with 4 samples.

Results

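The transcription factor p53 (gene Trp53), its antagonists Mdm2 and Mdm4, and the target genes Ccng1, Phlda3, Zmat3, Trp53inp1, Aen and Perp were followed in mouse erythroleukemia (MEL) cells. These 9 genes were chosen by symbol, as p53, its regulators and known mouse targets. Each was found as a locus with its own symbol, so 9 of the 42707 single-symbol loci of the table are described, and none shared a locus with another gene. MEL cells are a mouse line arrested at an early erythroid stage that resumes erythroid-like maturation when dimethyl sulfoxide (DMSO) is added. RNA depleted of ribosomal RNA was sequenced from 2 DMSO-induced samples (1.5% DMSO in the medium) and 2 uninduced samples of the same cells. How long the cells were exposed is not stated in the labels, nor is it stated that the replicates were grown as separate cultures; the p-values therefore cover the spread among these 4 samples, part of which may be technical.

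p53 is a DNA-binding factor that is kept low in unstressed cells because Mdm2 marks it for degradation and Mdm4 masks its activation domain. DNA damage and other stresses free it from both, mainly at the protein level, and it then switches on genes of cell cycle arrest, apoptosis, repair and metabolism, Mdm2 among them. Erythroleukemia lines raised with Friend virus have often lost or altered Trp53. The protein, its modification and the Trp53 sequence of these cells were not measured here.

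The p53 protein binds DNA through a half-site consensus that occurs in adjoining pairs. The RefSeq promoter windows (GRCm38.p6, 250 bases before to 50 after a gene's start) were searched for it, on both strands at once because the consensus is its own reverse complement. Windows were at hand for 6 of the 9 genes, the others being Zmat3, Trp53inp1 and Perp. A half-site without mismatch was found for Trp53, Mdm2, Ccng1 and Aen, and in 8.36% of all 32851 windows. That share counts windows and not genes: Aen and Mdm4 had 2 windows each, and no enrichment was tested. An adjoining pair with at most 1 mismatch over its 20 bases was found for Ccng1, and in 0.0883% of all windows. It was also found in 1 of the 2 windows of Cdkn1a, a well-known p53 target. Cdkn1a was the only gene of the wider pathway searched by name, so its match is an illustration only. The matches follow so that the letters can be read beside the expression of the genes that carry them; capitals mark the half-site or the adjoining pair, read 5′ to 3′ on the gene's strand.
Ccng1 (chr11:40755442-40755501, minus strand): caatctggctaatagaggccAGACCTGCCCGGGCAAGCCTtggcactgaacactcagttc
Cdkn1a (chr17:29090908-29090967, plus strand): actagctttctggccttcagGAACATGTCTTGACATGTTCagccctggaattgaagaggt
Aen (chr7:78895917-78895966, plus strand): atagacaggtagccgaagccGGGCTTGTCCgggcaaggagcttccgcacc
Mdm2 (chr10:117710915-117710964, minus strand): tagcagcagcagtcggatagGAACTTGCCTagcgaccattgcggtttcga
Trp53 (chr11:69580264-69580313, plus strand): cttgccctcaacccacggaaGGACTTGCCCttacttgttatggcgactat
No match was found in the windows of Mdm4 and Phlda3, which says only that these letters are absent from those windows. A match is a stretch of letters and was not tested as a binding site.

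Values are in FPKM, in which fragments are divided by transcript length and by the size of the library, so that genes of different length share 1 scale. Column sums were 1246536 and 1100517 FPKM in the induced samples and 1055861 and 1325806 FPKM in the uninduced ones; read depth was not given. All 9 erythroid markers checked were detected, with summed levels of 58799 and 112379 FPKM in induced and 1356 and 1774 FPKM in uninduced samples. Most of each sum came from the globin genes Hba-a1 and Hbb-bs. Each of the 9 was higher in both induced samples, but some far less than the sum. Epor measured 162 and 180 FPKM in induced samples, against 111 and 145 FPKM in uninduced samples. Markers of B cells (3 of 3), T cells (3 of 3) and macrophages (3 of 3) stayed under 1 FPKM in every sample, as did the fibroblast marker Col1a1. Of the 3 megakaryocyte markers, Pf4 was at 106 and 138 FPKM in induced and 198 and 329 FPKM in uninduced samples, and Gp9 at 5.05 and 4.41 FPKM in induced and 2.28 and 2.89 FPKM in uninduced samples. The locus that Itga2b shares with Gpatch8 was at 85.9 and 136 FPKM in induced and 46.8 and 69.5 FPKM in uninduced samples. Pf4 was thus lower and the other markers higher in induced cells, and their part in the results was not tested.

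In DMSO-induced cells Trp53inp1 rose and Aen fell, while the other 7 genes, p53 included, did not pass the threshold. That threshold was an adjusted p of 0.05 (limma, Benjamini-Hochberg) over all 12890 loci that reached 1 FPKM in 2 or more samples. All 9 genes passed that filter on low values, Trp53inp1 through its induced samples alone. The 2 calls of 9 stand against 26.2% of all loci called, 11.5% higher and 14.7% lower, so the share of these genes that changed was near the background. In these bulk samples fewer cells of a type and less RNA per cell cannot be told apart. Fold changes are induced over uninduced, ± SE, as differences of log2(FPKM + 1), a scale on which the change of a weakly expressed gene comes out too small; means are given ± SD over 2 samples per group.

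Trp53 encodes p53 itself (chromosome 11, 69580359 to 69591873, plus strand; GRCm38, GENCODE M21, as for all gene positions here). It measured 34.84 and 53.28 FPKM in induced samples, against 44.14 and 34.45 FPKM in uninduced samples. The groups overlapped, with the highest and the next to lowest value both in induced cells. The log2 fold change was 0.14 ± 0.28, with a 95% interval from -0.57 to 0.86 (limma adjusted p = 0.724). Its sign rested on single libraries: it was -0.16 without induced replicate 2 and -0.03 without uninduced replicate 2. By mean level Trp53 stood at percentile 81.1 of the tested loci, the highest of the 9 genes. In GENCODE M21 no annotated gene overlapped it, so its reads are not shared with an antisense gene of that annotation.

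**Figure D1:**
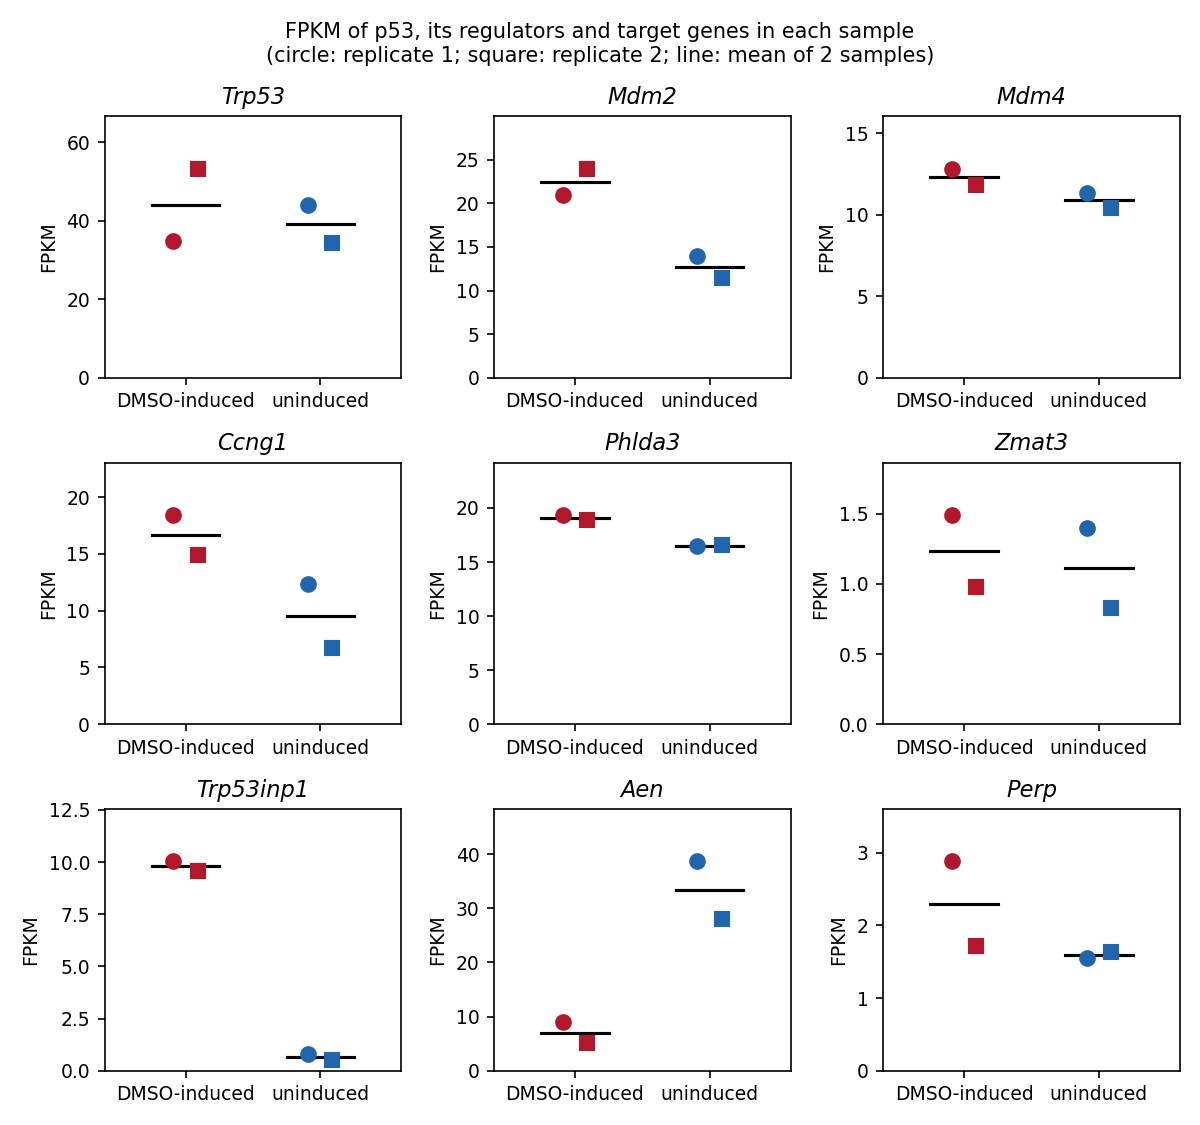
FPKM (vertical axes, starting at 0) of the 9 genes in DMSO-induced samples (red, left) and uninduced samples (blue, right), with circles for replicate 1, squares for replicate 2 and lines for the mean of 2 samples. Trp53inp1 lay at 9.58 and above in induced samples and at 0.78 and below in uninduced ones, Aen showed the opposite order, and the Trp53 and Zmat3 groups overlapped.

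Mdm2, the ubiquitin ligase that degrades p53 and is itself a p53 target (chromosome 10, 117688875 to 117710758), measured 20.98 and 23.97 FPKM in induced samples, against 14.00 and 11.49 FPKM in uninduced samples. Both induced values lay above both uninduced ones, an order seen in 36.1% of all loci tested. The log2 fold change was 0.78 ± 0.21, with a 95% interval from 0.24 to 1.31, and fell just short of the threshold (limma adjusted p = 0.0508). It passed with quantile normalization (limma adjusted p = 0.0379), median-of-ratios scaling (0.0448), a filter at 5 FPKM (0.0472) and robust variance estimation (0.0454). Over all alternatives the adjusted p ran from 0.0379 to 0.257.

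Mdm4, the related antagonist that binds p53 without degrading it (chromosome 1, 132959484 to 133030561), measured 12.84 and 11.84 FPKM in induced samples, against 11.36 and 10.43 FPKM in uninduced samples. The groups did not overlap but lay close, the log2 fold change being 0.17 ± 0.20 with a 95% interval from -0.33 to 0.66 (limma adjusted p = 0.548). A processed pseudogene, Gm29257, lies on the opposite strand inside Mdm4 and reached at most 0.23 FPKM. The ratio of Mdm2 to Mdm4 FPKM was 1.63 and 2.02 in induced samples, against 1.23 and 1.10 in uninduced samples. As log2((Mdm2 + 1)/(Mdm4 + 1)) the ratio averaged 0.81 ± 0.21 in induced and 0.20 ± 0.11 in uninduced samples (SD, n = 2 each). The difference of 0.61 had an exact two-sided permutation p of 0.333, and no smaller value can be reached with 2 samples in each group.

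Trp53inp1, a stress protein that binds autophagosome proteins and promotes p53 activity (chromosome 4, 11156431 to 11174379), measured 10.03 and 9.58 FPKM in induced samples, against 0.78 and 0.52 FPKM in uninduced samples. The replicates lay close together and the groups far apart, with means of 9.81 ± 0.32 FPKM in induced and 0.65 ± 0.18 FPKM in uninduced samples. The gene rose, with a limma adjusted p of 0.00785, a log2 fold change of 2.72 ± 0.21 and a ratio of mean FPKM of 15.1. Its change stood at percentile 99.6 of all loci tested. Both uninduced values were under 1 FPKM, so the gene entered the test through its induced samples alone. The call was lost with no filter on low values (limma adjusted p = 0.0568) and without induced replicate 2 (adjusted p = 0.0667), uninduced replicate 1 (0.0652) or uninduced replicate 2 (0.0831) and held without induced replicate 1 (0.0456); the log2 fold change stayed between 2.60 and 2.83 in these fits.

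Aen, a nuclease that enhances apoptosis (chromosome 7, 78895854 to 78911209), measured 8.99 and 5.03 FPKM in induced samples, against 38.66 and 27.93 FPKM in uninduced samples. Every induced value lay far under every uninduced one. The gene fell to 7.01 ± 2.80 FPKM in induced samples, against 33.3 ± 7.59 FPKM in uninduced samples, a log2 change of -2.13 ± 0.33 with a limma adjusted p of 0.0177. Its change stood at percentile 3.16 of all loci. The call was lost with no filter (limma adjusted p = 0.0664) and without induced replicate 2 (adjusted p = 0.0953), uninduced replicate 1 (0.0786) or uninduced replicate 2 (0.0835), with log2 fold changes from -2.49 to -1.76 when any 1 sample was left out, and held at 0.0496 without induced replicate 1.

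**Figure D2:**
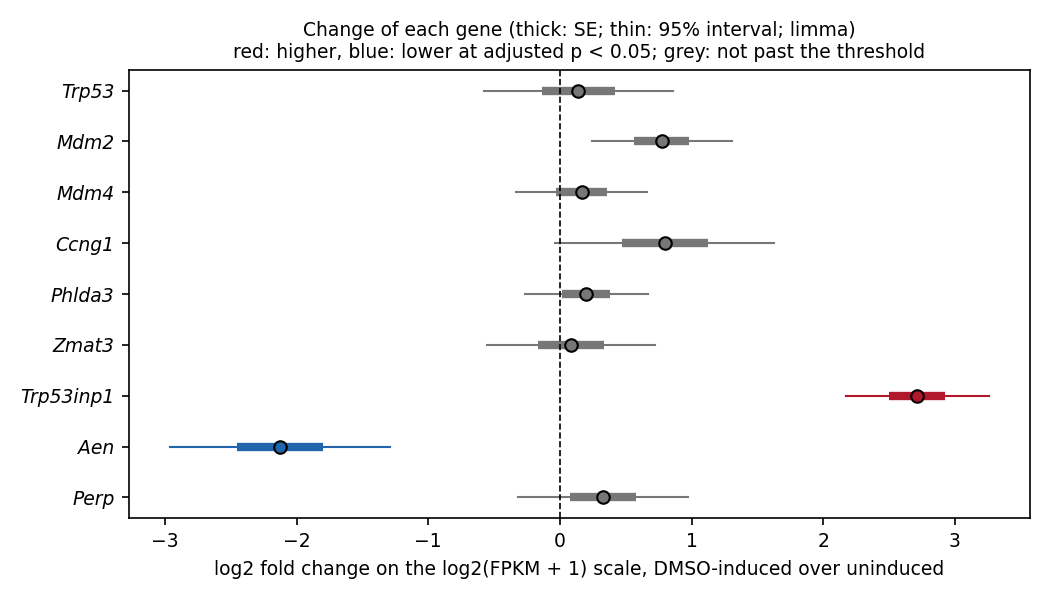
Log2 fold change of each of the 9 genes on the log2(FPKM + 1) scale, DMSO-induced over uninduced (horizontal axis), with thick bars for the SE and thin bars for the 95% interval from limma. Trp53inp1 (2.72) and Aen (-2.13) lie on opposite sides of 0, and the interval of Mdm2 (0.24 to 1.31) also leaves 0 out although its adjusted p did not pass.

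Ccng1, cyclin G1, which acts with a phosphatase in the control of Mdm2 (chromosome 11, 40748552 to 40755311), carries the adjoining pair of half-sites shown above. It measured 18.42 and 14.94 FPKM in induced samples, against 12.34 and 6.68 FPKM in uninduced samples. The induced values were both higher, but the uninduced replicates stood far apart, with a log2 fold change of 0.80 ± 0.33 and a 95% interval from -0.03 to 1.63 (limma adjusted p = 0.127). Leaving out uninduced replicate 1 gave 1.20 and leaving out uninduced replicate 2 gave 0.40, neither past the threshold.

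Phlda3, a repressor of AKT signalling (chromosome 1, 135766119 to 135769136), had the closest replicates of the 9 genes in both groups, 0.04 apart in induced and 0.01 apart in uninduced samples in log2(FPKM + 1). It measured 19.35 and 18.85 FPKM in induced samples, against 16.46 and 16.56 FPKM in uninduced samples. The groups did not overlap, and the log2 fold change of 0.20 ± 0.18 did not pass (95% interval -0.27 to 0.67, limma adjusted p = 0.443).

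Zmat3, an RNA-binding zinc finger protein (chromosome 3, 32334792 to 32366014), measured 1.49 and 0.98 FPKM in induced samples, against 1.40 and 0.83 FPKM in uninduced samples. The groups overlapped (log2 fold change 0.08 ± 0.25, 95% interval -0.56 to 0.72, limma adjusted p = 0.819). Perp, a membrane protein of cell junctions that mediates p53-dependent apoptosis (chromosome 10, 18845020 to 18857073), measured 2.88 and 1.72 FPKM in induced samples, against 1.55 and 1.63 FPKM in uninduced samples. Its induced replicates differed more than the groups did (log2 fold change 0.33 ± 0.25, 95% interval -0.32 to 0.98, limma adjusted p = 0.368). Both genes lay low, at percentiles 5.61 and 14.9 of the tested loci by mean level.

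Ranked by mean FPKM, the order in induced cells was Trp53, Mdm2, Phlda3, Ccng1, Mdm4, Trp53inp1, Aen, Perp and Zmat3, and none of the 8 neighbouring pairs overlapped between samples. In uninduced cells the order was Trp53, Aen, Phlda3, Mdm2, Mdm4, Ccng1, Perp, Zmat3 and Trp53inp1, and the samples of 2 of 8 neighbouring pairs overlapped, Trp53 with Aen and Mdm4 with Ccng1. Aen thus lay next to Trp53 in uninduced cells and below Trp53inp1 in induced ones. The samples of the 2 groups did not overlap for 6 of the 9 genes that were higher and 1 that was lower in induced cells. The same held for 70.8% of all loci, 36.1% higher and 34.7% lower. The median log2 fold change of the 9 genes was 0.20, beside 0.03 over all loci tested.

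Profiles most like those of Trp53, Mdm2 and Ccng1 were sought among 6763 other single-symbol loci with a mean of at least 5 FPKM, by the Euclidean distance between log2(FPKM + 1) values over the 4 samples after subtraction of each gene's own mean. The nearest to Trp53 were Eno2 (distance 0.0594), Fgfrl1 (0.0685) and Litaf (0.128). The nearest to Mdm2 were Asxl2 (0.0132), Mapk9 (0.0239) and Numb (0.0340). The nearest to Ccng1 were Hspa4l (0.0465), Rapgef6 (0.0586) and Ift80 (0.0619). With 4 samples such likeness is a description only.

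The wider p53 pathway was read from 5 lists of other genes by role and the 2 p53 relatives, 88 genes in all, of which 65 with a locus of their own could be tested. Of the other 23, 15 were under the filter on low values, 4 lay in shared loci and 4 were not analysed here. Of the 65 genes, 8 rose and 7 fell, beside 11.5% higher and 14.7% lower over all loci, and 50 did not pass. Their median log2 fold change was 0.19 beside 0.03 over all loci. Neither p53 relative was expressed at a testable level: Trp63 and Trp73 reached at most 0.02 and 0.08 FPKM. None of the 15 calls held when induced replicate 2 or either uninduced replicate was left out, and Btg2 and Ptp4a3 alone held without induced replicate 1.

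Among upstream kinases and modifiers, 1 of 15 rose and none fell (median 0.46), beside 11.5% higher and 14.7% lower over all loci (median 0.03). The riser was Ep300, an acetyltransferase and coactivator of p53, at 10.24 and 9.49 FPKM in induced samples, against 5.30 and 5.57 FPKM in uninduced samples (log2 fold change 0.76 ± 0.20, limma adjusted p = 0.0483; 0.0533 under median-of-ratios scaling). The damage kinase gene Atm, at 3.37 and 1.37 FPKM in induced and 5.14 and 2.18 FPKM in uninduced samples, differed more between replicates than between groups. Rpl11, a ribosomal protein that binds Mdm2 and the most abundant gene of this list, measured 1208 and 1557 FPKM in induced and 1197 and 1506 FPKM in uninduced samples. Chek1 and Rpl5 lay in loci shared with Stt3a and Snord21 and were left out of the counts. Neither locus passed (limma adjusted p = 0.0623 and 0.244).

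Among inhibitors and ubiquitin ligases of p53, 1 of 9 rose and none fell (median 0.16), beside 11.5% higher and 14.7% lower over all loci. Trim24, a chromatin reader that also ubiquitinates p53, measured 16.38 and 17.83 FPKM in induced samples, against 5.49 and 4.67 FPKM in uninduced samples (log2 fold change 1.58 ± 0.20, limma adjusted p = 0.0142). Cdkn2a, whose locus encodes both an inhibitor of cyclin-dependent kinases and the Mdm2 inhibitor Arf, was the most abundant of this list. It measured 140 and 151 FPKM in induced samples, against 196 and 275 FPKM in uninduced samples (log2 fold change -0.67 ± 0.24, limma adjusted p = 0.0983). That change was -0.39 under quantile normalization and -0.43 without uninduced replicate 2, and it did not pass in either. The FPKM of the locus does not separate its products. Huwe1 lay in a locus shared with Mir3113, which did not pass (limma adjusted p = 0.863).

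Of the targets of cell cycle arrest, 2 of 8 rose and 2 fell (median 0.51), beside 11.5% higher and 14.7% lower over all loci. Btg2, an antiproliferative gene, measured 201 and 324 FPKM in induced samples, against 20.6 and 28.3 FPKM in uninduced samples (log2 fold change 3.35 ± 0.31, limma adjusted p = 0.0106). Sertad1, a regulator of cyclin-dependent kinase activity, also rose (1.08 ± 0.22, limma adjusted p = 0.0278). Cdkn1a encodes the inhibitor p21, the best known arrest target of p53, and 1 of its 2 promoter windows held the adjoining pair shown above. A link between that match and its expression was not tested. Cdkn1a fell to 2.78 and 2.81 FPKM in induced samples, against 5.68 and 5.36 FPKM in uninduced samples. Its log2 fold change was -0.78 ± 0.20 (limma adjusted p = 0.0458), and 0.0751 with rescaling after removal of globins and each sample's top 10 loci. The stress kinase gene Plk3 fell as well (-0.87 ± 0.20, limma adjusted p = 0.0347). Gadd45a, a stress gene, measured 65.2 and 111 FPKM in induced samples, against 9.96 and 38.5 FPKM in uninduced samples, and did not pass (limma adjusted p = 0.0738).

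Apoptosis targets had 1 of 11 that fell and none that rose (median 0.03), beside 14.7% lower and 11.5% higher over all loci. Bax, a pore-forming killer of the BCL2 family, measured 60.2 and 65.4 FPKM in induced samples, against 113 and 99.5 FPKM in uninduced samples (log2 fold change -0.75 ± 0.19, limma adjusted p = 0.0449). The call was lost with quantile normalization (0.0972) and with rescaling after removal of globins and each sample's top 10 loci (0.0916). Siva1, the most abundant of this list, measured 258 and 203 FPKM in induced samples, against 408 and 397 FPKM in uninduced samples (-0.81 ± 0.22, limma adjusted p = 0.0537). Bbc3, which encodes the BH3-only protein PUMA, ran from 11.75 to 24.68 FPKM in induced and from 5.27 to 18.45 FPKM in uninduced samples, so the groups overlapped. The death receptor gene Fas and Eda2r were listed at 0 in all samples.

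Of the targets of DNA repair and metabolism, 4 of 22 rose and 4 fell (median 0.17), beside 11.5% higher and 14.7% lower over all loci. The risers were the phosphatase gene Ptp4a3 (log2 fold change 2.02 ± 0.37), the lipase gene Abhd4 (1.35 ± 0.26), the sestrin gene Sesn1 (1.32 ± 0.19) and the repair endonuclease gene Ercc5 (1.19 ± 0.23), with limma adjusted p from 0.0163 to 0.0248. The genes that fell were the cytokine gene Gdf15 (-2.10 ± 0.39), the second sestrin gene Sesn2 (-1.71 ± 0.44), the glutaminase gene Gls2 (-1.31 ± 0.23) and the mitochondrial reductase gene Fdxr (-1.12 ± 0.29), with limma adjusted p from 0.0213 to 0.0463. Gdf15 measured 0.99 and 1.04 FPKM in induced samples, against 4.99 and 11.53 FPKM in uninduced samples. Its induced values thus lay near the filter level of 1 FPKM, and its uninduced replicates stood far apart. Sesn1 measured 24.96 and 28.72 FPKM in induced samples, against 10.01 and 10.17 FPKM in uninduced samples. Sesn2, which is also a known target of ATF4, measured 7.64 and 8.04 FPKM in induced samples, against 17.54 and 43.81 FPKM in uninduced samples, so the sestrins moved in opposite directions and the uninduced Sesn2 replicates stood far apart. Sesn2 missed the threshold under median-of-ratios scaling (0.0528) and with a pseudocount of 0.1 (0.051). Fdxr missed it under those settings too (0.051 and 0.0501) and with rescaling after removal of globins and each sample's top 10 loci (0.0544). Rps27l, the most abundant of this list, measured 481 and 406 FPKM in induced and 593 and 578 FPKM in uninduced samples and did not pass (limma adjusted p = 0.225). The locus shared by Sco2 and Tymp was left out of the counts, although it passed the threshold as lower. It measured 24.95 and 20.59 FPKM in induced samples, against 40.16 and 44 FPKM in uninduced samples (-0.86 ± 0.20, limma adjusted p = 0.0365).

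Over the 3 target lists together, 6 of 41 genes rose and 7 fell, with 28 not past the threshold. Over all loci tested, 11.5% were called higher and 14.7% lower. The log2 fold changes of the 41 genes ran from -2.10 (Gdf15) to 3.35 (Btg2), around a median of 0.17, beside 0.03 over all loci.

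**Figure D3:**
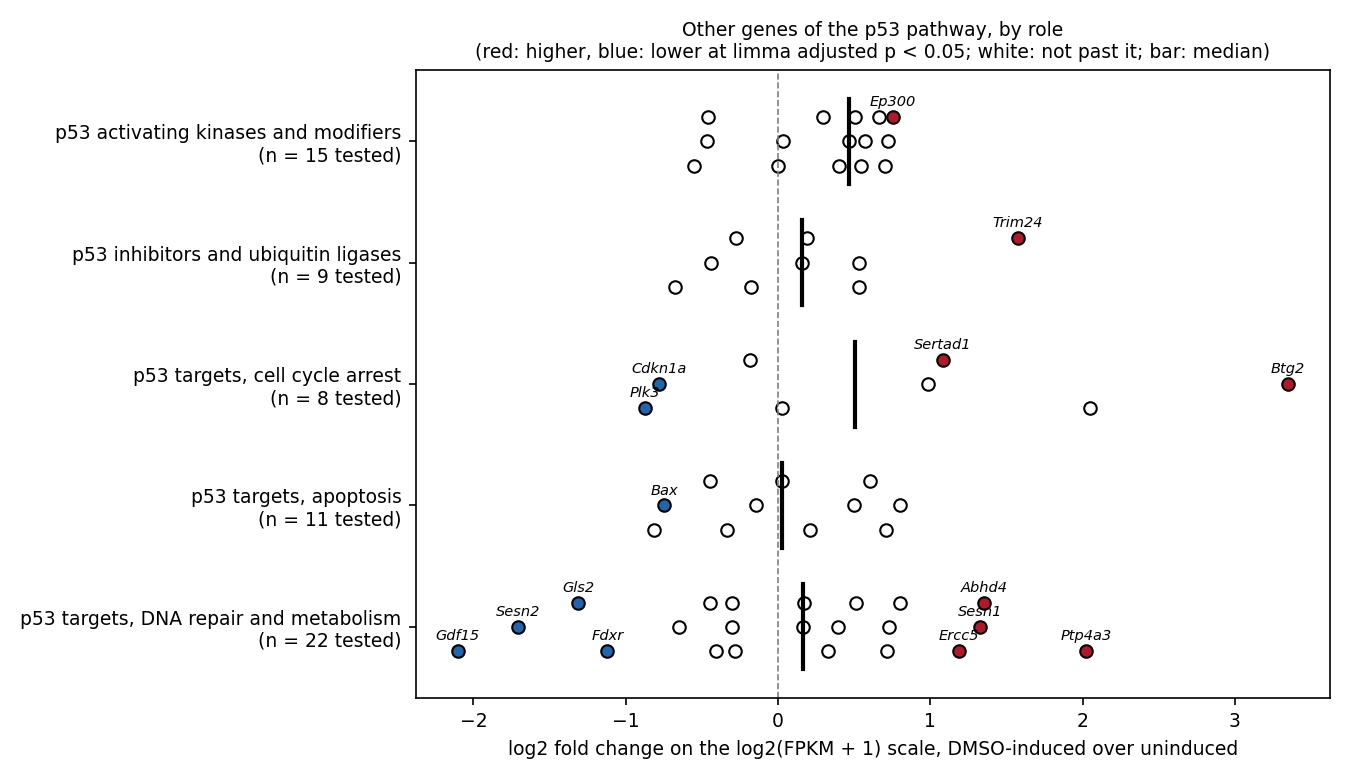
Log2 fold change on the log2(FPKM + 1) scale, DMSO-induced over uninduced (horizontal axis), of the other p53 pathway genes by role; filled points passed limma's adjusted p of 0.05 (red higher, blue lower), white points did not, and black bars are medians. Called genes of the arrest list and of the repair and metabolism list lie on both sides of 0, from -2.10 (Gdf15) to 3.35 (Btg2).

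**Figure D4:**
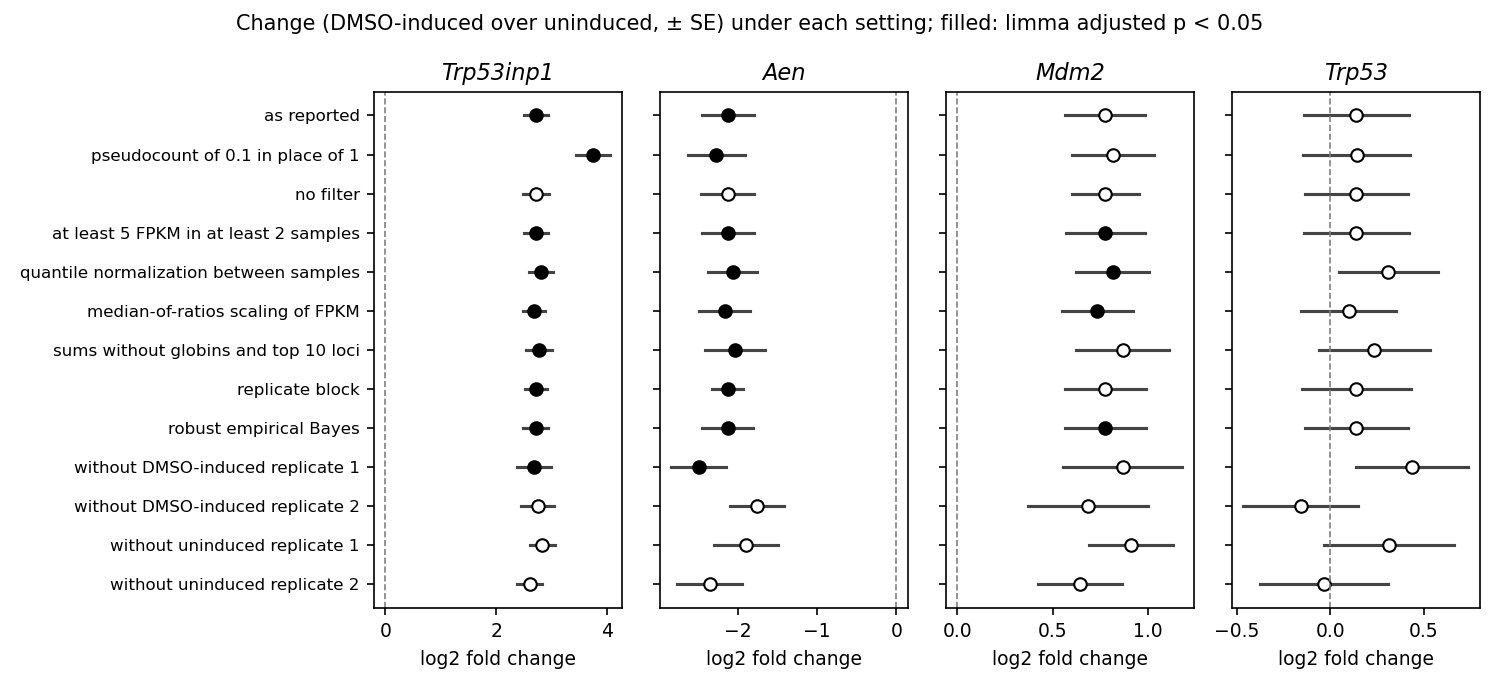
Log2 fold change (horizontal axes, ± SE) of Trp53inp1, Aen, Mdm2 and Trp53, DMSO-induced over uninduced, as reported and under each of 12 other settings; filled points passed limma's adjusted p of 0.05. Trp53inp1 stays between 2.60 and 3.74 and Aen between -2.49 and -1.76, Mdm2 lies above 0 throughout, and Trp53 falls on either side of 0.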

How the data were processed

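The deposited table held 1 value column per sample for 47935 loci. Its unit was taken as FPKM, made by the authors: per the file headers the column names follow Cufflinks tracking output, and the values are not whole. The submitters' processing notes name TopHat2 and GRCm38. For version, quantifier, annotation, strandedness and depth the entry is "not given in the sources used here". Whole reads could not be had from the table, and no count test was run. FPKM is relative to each library's total.

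Loci that reached 1 FPKM in 2 or more samples (12890) were fitted as log2(FPKM + 1) in limma 3.58.1 (R 4.3.3; eBayes with trend) with a term for group, and p-values were adjusted over all of them by Benjamini-Hochberg. It was tested on simulated data. Gene positions came from GENCODE M21. The 9 genes and the lists were chosen with earlier results of these data known. Named genes were the 9, list genes past the threshold, the most abundant tested gene of each list, shared loci, and the 3 nearest profiles of Trp53, Mdm2 and Ccng1. Atm, Gadd45a, Bbc3, Fas, Eda2r, Trp63 and Trp73 were named after their values were seen. Alternatives were 3 scalings, 2 filters, another pseudocount, robust variance estimation, a replicate block and leaving out each sample.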

Additional observations from a re-analysis of the deposited data

How the results depend on the processing

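The 9 genes gave 2 calls, the pathway lists 15 and all loci 3377. With no filter on low values these counts were 0, 0 and 30 by limma, although 3 of the 9 genes and 28 list genes had an unadjusted p under 0.05. Leaving out 1 sample gave 0 to 2, 0 to 2 and 14 to 486 calls, with 2 to 4 of the 9 genes and 12 to 24 list genes at an unadjusted p under 0.05; a lone sample was then assumed to vary like the other group. By construction those fits have fewer samples. Trp53 and Zmat3 changed sign when 1 sample was left out (-0.16 to 0.44 and -0.11 to 0.28), as did Rpl11 (-0.15 to 0.21), which was also at -0.014 under median-of-ratios scaling; the cause was not tested. Under the other 3 scalings the 9 genes gave 2 or 3 calls and the lists 12 to 16. Calls over all loci were 1478 higher and 1899 lower as reported, and 1449 and 1973 under median-of-ratios scaling. With quantile normalization they were 1819 higher and 1692 lower. Rescaling after removal of globins and each sample's top 10 loci gave 1528 higher and 1516 lower. The surplus of lower calls in the background thus depended on the scaling. The difference in the log2 ratio of Mdm2 to Mdm4 stayed between 0.46 and 0.76 under its alternatives.

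The replicate numbers were not taken as pairs: the labels name no shared batch, and 2 numbers do not suffice to decide it. Deviations from the group means correlated at 0.17 across loci. With the replicate block, 4238 loci, 20 list genes and 2 of the 9 genes were called. Fdxr then fell short of the threshold (limma adjusted p = 0.0502), and 6 list genes passed that had not: Gadd45a (0.0194), Ckap2 (0.0361), Trp53i13 (0.043), Dcxr (0.0467), Siva1 (0.0473) and Cpt1c (0.0491).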

Other observations

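Relatives of the 9 genes by sequence family were looked at after the main values were known. Trp53inp2, the relative of Trp53inp1 that acts in autophagy, measured 8.43 and 9.29 FPKM in induced samples, against 1.10 and 0.79 FPKM in uninduced samples, a rise of 2.35 ± 0.22 on the log2(FPKM + 1) scale (limma adjusted p = 0.0106). Ccng2, cyclin G2, measured 48.64 and 62.19 FPKM in induced samples, against 13.57 and 9.82 FPKM in uninduced samples (2.16 ± 0.25, limma adjusted p = 0.0128). Phlda2, an imprinted relative of Phlda3, fell to 5.60 and 4.72 FPKM in induced samples, against 124.97 and 99.52 FPKM in uninduced samples (-4.19 ± 0.22, limma adjusted p = 0.00337). The exonuclease genes Isg20 and Isg20l2, relatives of Aen, did not pass (limma adjusted p = 0.509 and 0.14), and Phlda1 stayed at 0.32 FPKM or less. Whether Ccng2 and Ccng1, or Phlda2 and Phlda3, differed in their change was not tested. Without uninduced replicate 1 or 2 the calls of Trp53inp2, Ccng2 and Phlda2 were lost (limma adjusted p from 0.0517 to 0.0831), and those of Trp53inp2 (0.0776) and Ccng2 (0.0891) also without induced replicate 2. Without induced replicate 1, Ccng2 was at 0.0505. With no filter on low values Trp53inp2 and Ccng2 fell short of the threshold (limma adjusted p = 0.0568 for each) and Phlda2 passed (0.0404).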
